A study of Homo sapiens with 10 samples.

Results

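State S1 comprises 2032 cells, which the metadata table deposited by the authors labels S1 among the 8240 cells it lists, out of 18209 cells in the deposited count matrix. They were taken by that label alone: 1223 cells came from the library of 1 µM olaparib (T1), 626 from 2.5 µM (T2.5) and 183 from 5 µM (T5). The cells are of the human line Kuramochi, an established line of ovarian carcinoma, labelled epithelial and BRCA2-mutant in every population, controls included. Its drug-naïve cells (C, untreated) were taken through an escalation of olaparib, an inhibitor of the DNA repair enzymes PARP1 and PARP2, and 10 populations were profiled by inDrop, a droplet method that counts RNA molecules through unique molecular identifiers (UMIs). Each population was 1 library of 1 serial escalation of 1 line, so no dose has a replicate and a dose cannot be told apart from its library. The other states are C (453 listed untreated cells), S2 (1454 cells, from 2.5 to 20 µM), S3 (588), S4 (1805) and S5 (1908, from 160 and 320 µM).

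Interferons bind cell surface receptors, and signalling from these switches on interferon-stimulated genes through a short promoter element rich in GAAA. IFI6 and IFI27 are such genes and encode small membrane proteins of mitochondria and the endoplasmic reticulum. IGFBP5 encodes a secreted protein that binds insulin-like growth factors, and PLXNA4 encodes plexin A4, a receptor for class 3 and class 6 semaphorins. These 4 genes were the markers set for S1.

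The promoters of the interferon-stimulated genes are shown because that group differed between the doses within S1. The searched motif was GAAANNGAAA on both strands, a core of the interferon-stimulated response element, in windows from 250 bases before to 50 bases after each RefSeq start site (GRCh38.p14). Each line below gives 120 bases, from 180 to 61 bases before 1 start site, 5′ to 3′ on the gene's strand, with motif matches in capitals. A match on the other strand reads as its complement, with TTTC in place of GAAA.
IFI6 (chr1:27672253-27672372, minus strand): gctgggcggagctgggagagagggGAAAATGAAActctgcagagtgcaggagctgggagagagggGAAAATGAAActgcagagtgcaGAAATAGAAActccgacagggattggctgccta
IFI27 (chr14:94110556-94110675, plus strand): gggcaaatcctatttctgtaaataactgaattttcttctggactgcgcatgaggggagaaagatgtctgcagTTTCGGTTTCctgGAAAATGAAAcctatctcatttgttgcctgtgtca
IFI44L (chr1:78620268-78620387, plus strand): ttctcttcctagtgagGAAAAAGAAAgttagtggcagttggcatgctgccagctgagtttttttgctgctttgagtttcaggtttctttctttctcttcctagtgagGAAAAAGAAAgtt
IFIT1 (chr10:89392443-89392562, plus strand): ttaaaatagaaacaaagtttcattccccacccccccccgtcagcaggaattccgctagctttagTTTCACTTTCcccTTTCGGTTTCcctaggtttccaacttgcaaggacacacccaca
ISG15 (chr1:1013317-1013436, plus strand): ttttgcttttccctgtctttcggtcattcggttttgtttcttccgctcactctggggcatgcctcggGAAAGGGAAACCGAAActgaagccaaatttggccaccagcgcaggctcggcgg
IFI6 held 3 matches and the other genes 2 each, and the pair in ISG15 overlapped. The windows of IGFBP5 and PLXNA4 held none. Of the 21 measured interferon-stimulated genes, 19 had a promoter in the table and 17 of them held a match in at least 1 promoter, or 21 of their 27 promoters (77.8%), against 1255 of all 35116 promoters (3.57%).

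S1 held 5236448 UMIs, with totals of 3245197 in T1, 1432780 in T2.5 and 558471 in T5, and medians of 2624, 1313.5 and 2564 UMIs per cell. The C cells held 2898842 UMIs with a median of 5946, so S1 cells were shallower than the cells they are set against. S1 made up all of the listed cells of T1, 82.4% of those of T2.5 and 46.0% of those of T5, the rest of T2.5 and T5 being S2 (134 and 215 cells), and 52.9%, 40.1% and 25.2% of all cells of these libraries. Mitochondrial genes took 7.49%, 8.63% and 9.63% of S1 UMIs and 11.8% of those of C. The table's name refers to G1: with each cell thinned to 1000 UMIs, 3 or more UMIs of the G2/M list were found in 6.28%, 9.46% and 8.81% of S1 cells and in 24.3% of C cells, against 60.9%, 62.5% and 68.0% of the unlisted cells of the same libraries. Of the S1 cells, 222 carried a barcode that another library also held, and 8 barcodes occurred in more than 1 S1 library. Levels are CPM (the UMIs of a gene in a group's summed cells, scaled to the same total in each group), and differences are those of log2(CPM + 10), a scale that understates the change of low genes. With 1 library per population, and states being labels given to the same cells, no difference below carries a test, and the 95% intervals (exact Poisson for folds, exact Clopper-Pearson for shares of cells) cover counting error only.

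IFI6 (chr1:27666061-27672218, GRCh38, minus strand) stood at 1136 CPM in S1 of T1, 1973 in T2.5 and 478 in T5. It was at 165 CPM in C and, in S2, at 782 CPM in T2.5, 119 in T5, 163 in T10 and 793 in T20. S1 of T1 and T2.5 therefore lay above every other listed group, while S1 of T5 lay below S2 of T2.5 and of T20. Against C the folds were 6.89 (6.26 to 7.6), 12 (10.9 to 13.2) and 2.9 (2.49 to 3.37). Against S2 of the same library they were 2.52 (2.22 to 2.87) in T2.5 and 4.03 (3.11 to 5.27) in T5. Thinning to 1000 UMIs keeps only cells with that many: 1146 of 1223 S1 cells in T1, 423 of 626 in T2.5 and 159 of 183 in T5, and 399 of 453 in C. Of these cells, 53.8% (50.9 to 56.8) carried an IFI6 UMI in T1, 71.2% (66.6 to 75.4) in T2.5 and 23.9% (17.5 to 31.3) in T5. In C that share was 11.8% (8.78 to 15.4). Without thinning the shares were 76.0%, 78.4% and 44.3% in S1 and 39.1% in C.

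IFI27 (chr14:94104836-94116698, plus strand) stood at 857 CPM in S1 of T1, 736 in T2.5 and 158 in T5, against 149 in C. In S2 it was at 209 CPM in T2.5 and 23.4 in T5, and both S5 libraries listed it at 0. S1 of T1 and T2.5 were again above all other groups, but S1 of T5 was at the level of C and below the 302 CPM of S3 and the 254 CPM of S4 in T20. The folds over C were 5.75 (5.19 to 6.38), 4.94 (4.41 to 5.53) and 1.06 (0.831 to 1.33). The folds over S2 were 3.51 (2.77 to 4.52) in T2.5 and 6.73 (3.87 to 12.5) in T5. An IFI27 UMI was present in 45.5%, 42.3% and 12.6% of thinned S1 cells and in 10.8% of C cells.

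IGFBP5 (chr2:216672105-216695525, minus strand) and PLXNA4 (chr7:132123332-132648688, minus strand) had another pattern over the doses. IGFBP5 was at 926, 696 and 1347 CPM in S1 of T1, T2.5 and T5 and at 114 CPM in C, folds of 8.16 (7.28 to 9.17), 6.13 (5.41 to 6.97) and 11.9 (10.4 to 13.5). PLXNA4 was at 356, 152 and 235 CPM against 20.7 in C, folds of 17.2 (13.3 to 22.7), 7.35 (5.5 to 9.95) and 11.3 (8.29 to 15.7). Both were highest outside T2.5, and neither separated S1 from S2. In S2 of T2.5, T5, T10 and T20, IGFBP5 stood at 538, 1209, 1034 and 682 CPM and PLXNA4 at 93.1, 172, 299 and 185 CPM, ranges that overlap those of S1. Within a library the folds of S1 over S2 were 1.29 (1.1 to 1.52) and 1.11 (1.01 to 1.23) for IGFBP5, and 1.63 (1.12 to 2.45) and 1.37 (1.05 to 1.78) for PLXNA4.

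**Figure D1:**
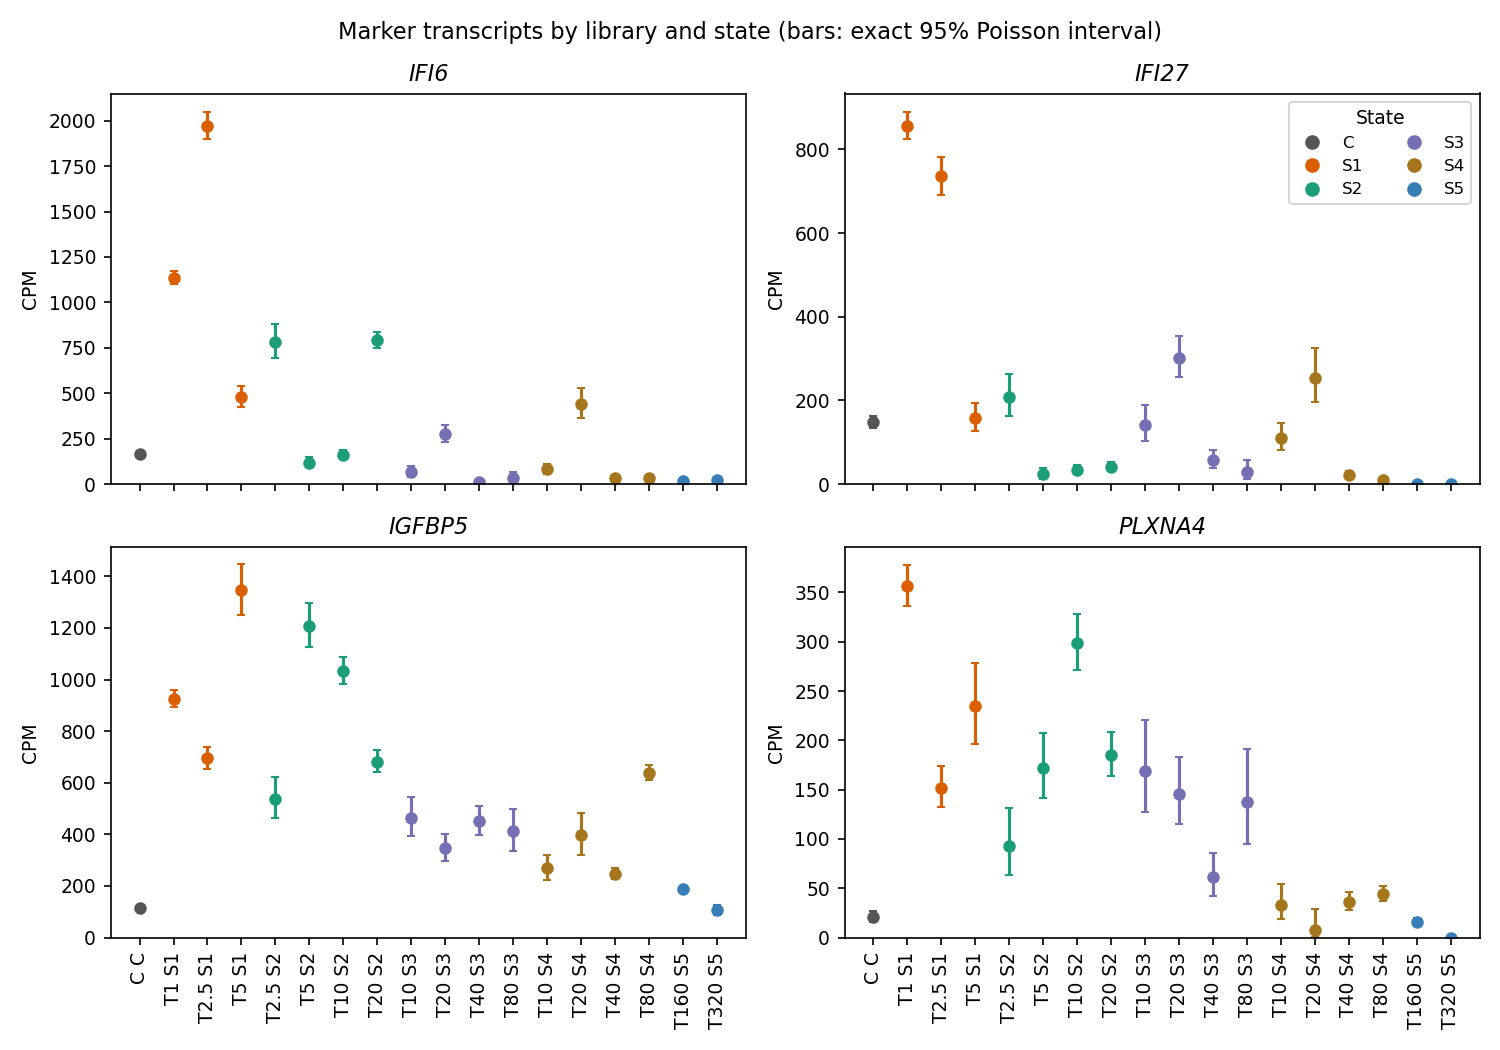
Level of each marker gene in CPM (y axis, linear, from 0) for each library and state (x axis), with exact Poisson 95% intervals that cover counting error only. IFI6 and IFI27 are highest in S1 of T1 and T2.5, while the S1 ranges of IGFBP5 and PLXNA4 overlap those of S2.

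S1 against C compares the first state under the drug with untreated cells of the same table. A gene was measured when it had at least 100 UMIs in the matrix and at least 50 CPM in 1 of the groups compared. It was called when the mean difference of the 3 libraries was at least 1 on the log2 scale (2-fold) and all had that sign; the 3 libraries are set against the same C cells. Of 4515 measured genes, 196 were called higher in S1 (4.34%) and 86 lower (1.9%), and the median gene differed by 0.02. In 84 genes the difference was at least 1 in each S1 library, and in 29 it was at most -1 in each. TMM scaling gave 162 higher and 116 lower, so the balance of the 2 directions depends on the scaling. Leaving out 1 library at a time gave 183 to 235 higher and 73 to 123 lower genes.

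Interferon-stimulated genes were higher in S1 than in C, and by less at the highest dose. Of 46 genes in the list, 21 were measured; 8 were called higher than in C (background 4.34%) and 0 lower. Differences were positive in 19, and their median was 0.69 against 0.02 over all measured genes. By library the median was 1.08 in T1, 0.80 in T2.5 and 0.13 in T5. Without T1 the number called was 5, and the most without another library was 11. IFI44L, a gene of the same response, was at 353, 208 and 133 CPM in S1 of T1, T2.5 and T5 and at 51.7 in C. ISG15, which encodes a ubiquitin-like modifier, was at 278, 223 and 120 CPM against 79.3. MX1, an antiviral GTPase, was at 152, 108 and 57.3 CPM against 33.5, and SAMD9 at 125, 69.1 and 73.4 CPM against 21.0. IFIT1, which binds foreign RNA ends, was at 92.8 and 46.1 CPM in T1 and T2.5 and, at 17.9, below the 23.8 CPM of C in T5. IFI44L, ISG15 and MX1 were thus lower at each dose yet above C, whereas SAMD9 was lowest in T2.5. IFIT1 shares 10.2% of its 3′ end sequence with other transcripts.

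From T1 to T5, 12 of 20 measured interferon-stimulated genes were called lower and 0 higher, with a median of -1.08. The background of that comparison was 92 of 4124 genes lower (2.23%) and 80 higher (1.94%), and other scalings gave more lower calls, 127 against 54 higher under TMM and 117 against 64 with DESeq2 size factors. Between T1 and T2.5 the median was -0.31 with 0 of 21 genes called in either direction (background 0.804% higher and 1.1% lower). Between T2.5 and T5 it was -0.64 and 3 of 16 genes were called lower (background 1.57%). Genes were measured by their level in the libraries compared, so these steps cover different genes. IFIT1, for example, was measured between T1 and T2.5 but not between T2.5 and T5. The medians and counts therefore do not show which step was larger. Among the genes lower in T5 than in T1, 17 of 108 promoters (15.7%) held GAAANNGAAA, against 154 of 4983 (3.09%) over the genes measured there, and among those higher 3 of 95 (3.16%) did. Among the genes higher in S1 than in C the motif was in 18 of 254 promoters (7.09%), and among those lower in 0 of 98, against 167 of 5445 (3.07%). The set lower in T5 includes the 12 interferon-stimulated genes called lower, and the set higher than C includes those called there. These shares are therefore not separate from the interferon list. A match describes the letters of the window and not a site in use.

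UMIs of the interferon list were spread over most S1 cells. With each cell thinned to 1000 UMIs, the median number of UMIs from the interferon list was 10 in T1, 10 in T2.5 and 6 in T5, against 4 in C. The 90th percentile of cells was 21, 20 and 12 UMIs, against 9 in C. Cells with no UMI of the list were 0.262%, 0.709% and 2.52% of the thinned S1 cells and 1.00% of those of C. In S2 the median was 7 in T2.5 and 4 in T5. Summed over the list, S1 stood at 11669, 11830 and 6563 CPM, C at 5024 CPM and S2 at 7696 CPM in T2.5 and 5047 CPM in T5. In T20, S2 stood at 7491 CPM, S3 at 7521 CPM and S4 at 7787 CPM, and S3 of T10 at 6589 CPM, all above S1 of T5 and below S1 of T1 and T2.5. Across cells of 1 library the IFI6 and IFI27 counts had a Pearson r of 0.29 in T1, 0.27 in T2.5 and 0.27 in T5, and IFI6 and ISG15 of 0.25, 0.27 and 0.23. These cells share a library and a thinned depth, and in such sparse counts the values are descriptions only.

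**Figure D2:**
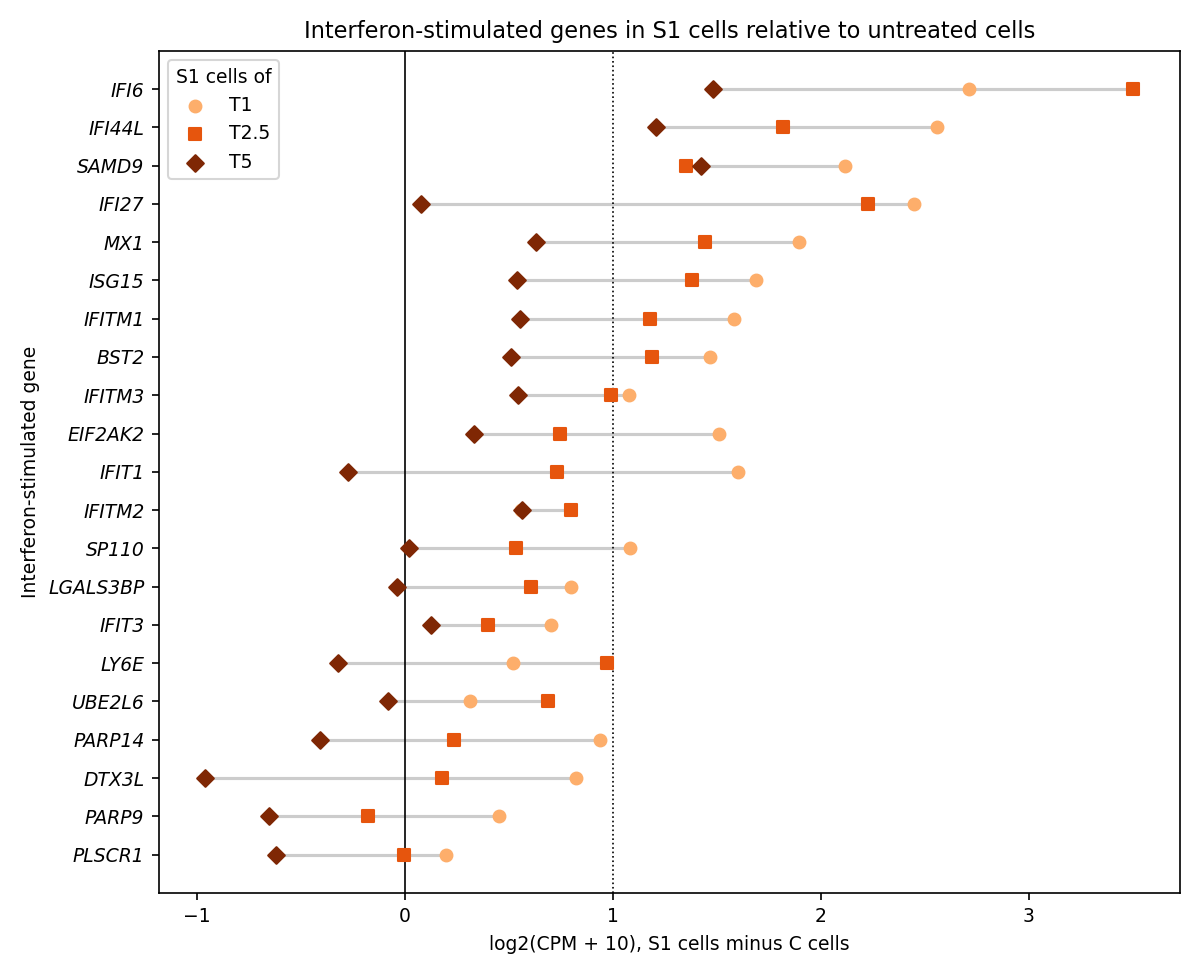
Difference of S1 from C in log2(CPM + 10) (x axis) for the 21 measured interferon-stimulated genes (rows), with 1 point for each S1 library and a dotted line at the 2-fold threshold. In most genes T1 lies farthest to the right and T5 farthest to the left, with IFI6, IFI44L and SAMD9 among those past the line in all 3 libraries.

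**Figure D3:**
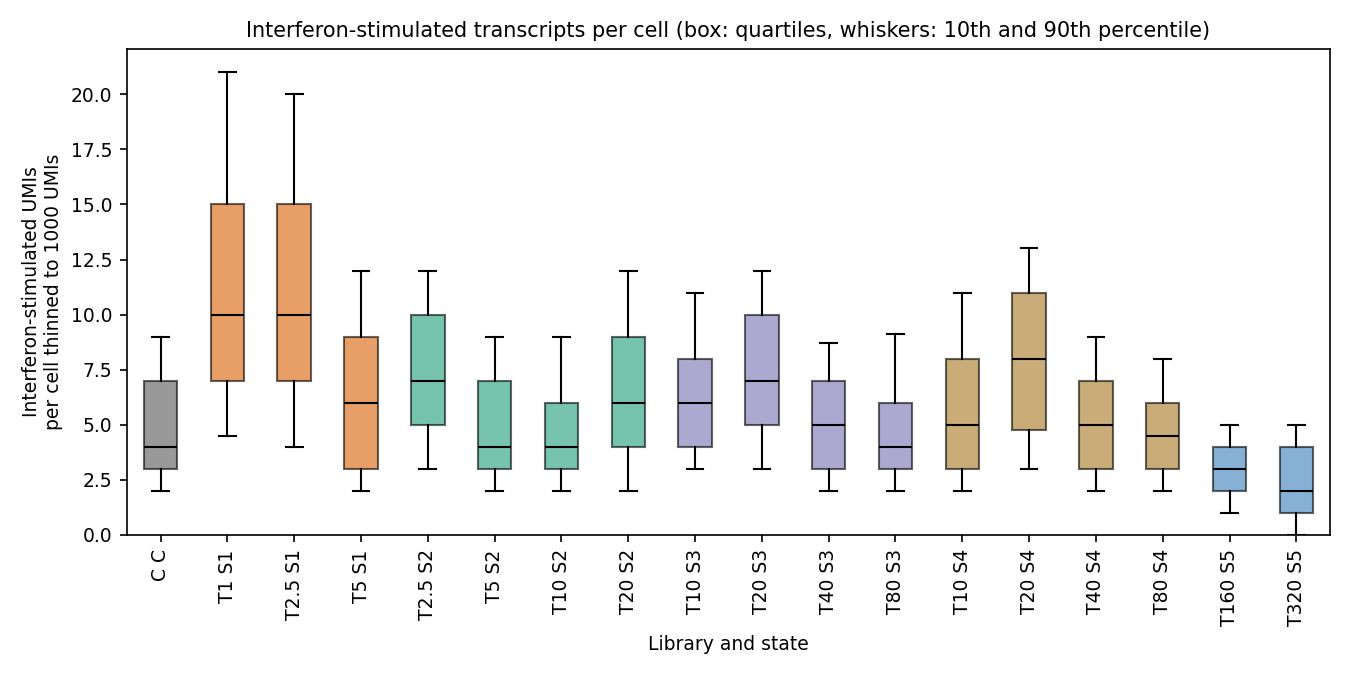
UMIs of the interferon list per cell thinned to 1000 UMIs (y axis) by library and state (x axis); lines are medians, boxes quartiles and whiskers the 10th and 90th percentiles over cells. The medians are 10, 10 and 6 in S1 of T1, T2.5 and T5 and 4 in C, and the boxes of T1 and T2.5 begin where that of C ends.

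Of 10 measured genes of interferon receptors and their signalling, 0 were called in either direction, which at backgrounds of 4.34% and 1.9% is no result about so few genes. Their medians were 0.37, 0.10 and -0.15 in T1, T2.5 and T5. Class I antigen presentation peaked in T2.5: HLA-B, which presents peptides to T cells, stood at 391, 815 and 408 CPM in S1 and 180 in C, and HLA-C at 191, 426 and 192 CPM against 92.1. HLA-B and HLA-C were the 2 of 11 measured genes of this list called higher than in C. These class I genes share part of their 3′ end sequence with other transcripts, so the split of reads between them is uncertain.

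Extracellular matrix genes were among those that differed most from C. COL3A1, the chain of type III collagen (chr2:188974320-189012746), stood at 390, 532 and 861 CPM in S1 against 32.8 in C, folds of 11.9 (9.66 to 14.8), 16.2 (13.1 to 20.3) and 26.3 (21.1 to 33.1). FN1, fibronectin, was at 1106, 2196 and 2383 CPM against 390. COL1A1 was at 63.2, 132 and 37.6 CPM against 6.90. Of 9 measured genes of fibrillar collagens and their assembly, FN1 among them, 5 were called higher and 0 lower (median 1.09). Of 10 basement membrane genes 3 were called higher and 0 lower (median 0.61). The backgrounds were 4.34% higher and 1.9% lower. LTBP1, which binds latent TGF-beta in the matrix, was at 187, 109 and 190 CPM against 25.2, and 4 of 11 TGF-beta response genes were called higher and 0 lower. COL3A1 and FN1 were higher with each dose, and all 3 libraries lay above C for each of these 4 genes.

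Growth factor and guidance genes were also higher than in C. IGF2, insulin-like growth factor 2, was at 5721, 5879 and 4335 CPM in S1 and 1226 CPM in C; 64.5% of its 3′ end sequence is shared with another transcript, so reads may be split between them. GPC3, a cell surface proteoglycan that binds growth factors, stood at 145, 55.8 and 48.4 CPM against 6.55. The insulin-like growth factor list had 3 of 8 measured genes higher and 0 lower, against backgrounds of 4.34% and 1.9%. The semaphorin, plexin and neuropilin list had 3 of 11 higher and 0 lower. In that list, PLXNA2 was at 88.1, 71.2 and 150 CPM against 18.3, and the co-receptor NRP1 at 53.9, 48.2 and 53.7 CPM against 16.6. RGS5, a regulator of G protein signalling typical of pericytes (chr1:163111121-163321791), was at 80.4, 172 and 276 CPM against 8.97. TENM4, a large transmembrane adhesion protein, was at 73.3, 57.9 and 84.2 CPM against 4.83. Each of these genes was above C in all 3 S1 libraries. In S2 of T2.5 and T5, IGF2 was at 10445 and 12517 CPM and GPC3 at 96.0 and 114 CPM, above S1 of the same library. TENM4, at 43.6 and 23.4 CPM, was below it, and PLXNA2 had no common direction. Against S2, 0 of 9 measured genes of the insulin-like growth factor list were called higher in S1 and 1 lower. The semaphorin list had 0 of 14 higher and 2 lower (backgrounds 2.58% and 2.45%).

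Of 15 measured AP-1 and immediate early genes, 5 were called higher than in C (background 4.34%) and 0 lower, with a median of 0.87. EGR1, an early transcription factor, stood at 1207, 528 and 638 CPM in S1 against 258 in C, JUN at 405, 155 and 301 against 117, and JUNB at 361, 149 and 308 against 98.3. These genes were lowest in S1 of T2.5, the library with the fewest UMIs per S1 cell. From T1 to T2.5, 5 of 12 were called lower (median -0.89, background 1.1%), and from T2.5 to T5 5 of 15 higher (median 0.83, background 0.652%). Between T1 and T5 0 of 15 were called, at backgrounds of 1.94% higher and 2.23% lower. Without T1 the number called higher than C was 3.

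Genes lower in S1 than in C included mitotic genes. PIMREG, a mitotic regulator, stood at 4.01, 12.6 and 1.79 CPM in S1 and 59.7 CPM in C, and KIF20A, a kinesin of cytokinesis, at 27.7, 32.1 and 17.9 CPM against 132. PCLAF, which binds the replication clamp PCNA, was at 36.4, 36.3 and 21.5 CPM against 148. Of 11 measured G2/M genes, 5 were called lower (background 1.9% in this comparison) and 0 higher (median -0.75). Of 7 G1/S genes 1 was called lower. C also had the larger share of cells with G2/M UMIs, given above, and its part in these differences was not tested. Leaving out the cells with 3 or more G2/M UMIs per 1000 (68 of C and 24, 47 and 3 of S1) gave 190 genes higher and 77 lower in all. NMU, a neuropeptide, was at 7.70, 8.38 and 3.58 CPM against 59.0, and ALDH1A2, which makes retinoic acid, at 33.6, 19.5 and 25.1 CPM against 110. IGFL1, a secreted growth factor-like protein, was at 44.1 and 138 CPM in T1 and T2.5 and 1.79 CPM in T5, against 158, so it was close to C in T2.5 alone. F3, tissue factor, which starts blood coagulation, was at 4.01, 7.68 and 7.16 CPM against 59.3. ENO1, a glycolytic enzyme that shares 18.3% of its 3′ end sequence with other transcripts, was at 2075, 2529 and 1533 CPM against 4057, and 1 of 14 glycolytic genes was called lower (median -0.51). Cholesterol synthesis had 2 of 12 genes called lower and 0 higher (median -0.66).

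Genes of the drug's own pathway follow. PARP1, the main target of olaparib, stood at 402, 270 and 290 CPM in S1 and 331 CPM in C. BRCA2 was at 12.9, 11.2 and 10.7 CPM against 7.59, levels that rest on few UMIs, and 16.8% of its 3′ end sequence is shared. Of 7 measured PARP and NAD genes, 4 homologous recombination genes and 6 p53 target genes, 0 were called in either direction against C, which at backgrounds of 4.34% and 1.9% is no result about so few genes. The medians of the PARP and NAD list were 0.45, 0.32 and 0.21 in T1, T2.5 and T5, and those of the homologous recombination list 0.53, 0.18 and 0.14.

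S1 against S2 within T2.5 and T5 compares cells of the same library, at the same dose. S2 entered with 343794 and 640406 UMIs. Of 4577 measured genes, 118 were called higher in S1 (2.58%) and 112 lower (2.45%); TMM scaling gave 96 and 132. In 64 genes S1 was at least 2-fold higher in both libraries, and in 76 at least 2-fold lower.

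Most measured epithelial and serous lineage genes were higher in S1 than in S2. PODXL, a sialomucin of epithelial and podocyte surfaces, stood at 219 and 383 CPM in S1 of T2.5 and T5 and at 23.3 and 28.1 CPM in S2, folds of 9.42 (4.72 to 22.0) and 13.6 (8.42 to 23.4). WFDC2, which encodes the ovarian tumour marker HE4, was at 502 and 364 CPM against 90.2 and 59.3, folds of 5.57 (3.89 to 8.25) and 6.13 (4.32 to 8.91). SOX17, a transcription factor of the Müllerian lineage, was at 131 and 140 CPM against 23.3 and 15.6, folds of 5.64 (2.80 to 13.3) and 8.94 (4.61 to 19.4). In C it stood at 382 CPM, above S1 of T1 (145) and of the other libraries. WT1, a lineage factor of serous carcinoma, was at 69.8 and 89.5 CPM against 20.4 and 7.81. A WT1 UMI was present in 6.86% and 8.81% of thinned S1 cells of T2.5 and T5 and in 14.8% of C cells. CD24, a mucin-like surface protein, was at 63.5 and 91.3 CPM in S1, 0 and 4.69 CPM in S2 and 59.3 CPM in C. SPON1, a secreted matrix protein, was at 195 and 201 CPM in S1, 46.5 and 14.1 CPM in S2 and 404 CPM in C. CLDN4, a tight junction protein, was at 101 and 193 CPM in S1, 23.3 and 40.6 CPM in S2 and 68.0 CPM in C. For PODXL, CD24 and CLDN4, S1 of each library was therefore at or above C while S2 was below it, whereas SOX17 and SPON1 were below C in S1 and lower again in S2. PAX8, the other lineage factor, had folds of 1.91 and 1.31 and was not called. Of 9 epithelial genes measured, 5 were called higher in S1 and 0 lower (median 1.02), and of 10 serous genes 5 higher and 0 lower (median 1.41), against backgrounds of 2.58% and 2.45%. Without T5 the epithelial number was 2. EPCAM, an epithelial surface marker, was listed at 0 in C and in the libraries of S1. Against C, 2 serous genes were called higher and 4 lower of 12 measured, at backgrounds of 4.34% and 1.9%.

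Stromal and contractile genes were lower in S1 than in S2. PDGFRB, a growth factor receptor of mural cells, stood at 4.89 and 3.58 CPM in S1 and 66.9 and 92.1 CPM in S2, so that S2 exceeded S1 13.7 times (5.69 to 37.8) and 25.7 times (6.81 to 217), the S1 values resting on 7 and 2 UMIs. In C its level was 0 CPM, which is no measured absence. EMCN, endomucin, was at 19.5 and 48.4 CPM against 157 and 415, 8.04 times (5.00 to 13.2) and 8.59 times (5.77 to 13.3) higher in S2, and it too was at 0 CPM in C. ACTA2, smooth muscle actin, was at 436 and 335 CPM against 2388 and 1936, 5.47 times (4.93 to 6.08) and 5.78 times (4.95 to 6.78) higher in S2. COL3A1 was at 2539 and 2873 CPM in S2, 4.77 times (4.33 to 5.27) and 3.34 times (3.02 to 3.70) its level in S1. Of 13 mesenchymal genes measured, 5 were called lower and 0 higher (median -0.90). Of 9 genes of fibrillar collagens and their assembly, 3 were lower and 0 higher (median -0.59). The backgrounds were 2.45% lower and 2.58% higher. ENG, endoglin, was at 18.8 and 7.16 CPM in S1 and 98.9 and 111 in S2, and LAMA4, a laminin chain of vessel walls, at 12.6 and 8.95 CPM against 93.1 and 98.4. Basement membrane genes had no common direction, with 1 of 11 called higher and 1 lower (median -0.15): COL18A1, a collagen of that layer, was at 87.9 and 86.0 CPM in S1 and 49.4 and 28.1 CPM in S2. ITGA1, a collagen receptor chain, was at 9.77 and 8.95 CPM against 137 and 62.5. RGS5 was at 451 and 645 CPM in S2 and FBLN5 at 233 and 206 CPM. Both were higher at each dose of S1 and higher still in S2. Other genes that were higher at each dose ran the other way. MFAP5 was at 47.5 and 73.4 CPM in S1 and 0 and 4.68 CPM in S2, and PIM1 at 50.9 and 122 CPM against 17.5 and 37.5. In T2.5 and T5, COL3A1 in S1 lay between C and S2, whereas S2 of T20 held 348 CPM, less than any S1 group.

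Fibroblast markers moved with these groups. They summed to 112 CPM in C, 521, 724 and 987 CPM in S1 of T1, T2.5 and T5, and 3272 and 3296 CPM in S2 of T2.5 and T5. Of 10 genes in that list, 6 had values here. Against C, 3 were measured and 2 called higher in S1 (background 4.34%). Against S2, 4 were measured and 3 called lower (background 2.45%). COL1A1 and COL3A1 belong to this list as well as to the fibrillar collagens, and PDGFRA was at 0 CPM in S1 of T1 and T2.5 and at 3.58 CPM in T5. The endothelial markers (4 of 8 with values) summed to 42.5, 49.6 and 26.9 CPM in S1 and 44.2 CPM in C, with 2 of them at 0 in all S1 libraries. The immune markers (2 of 13 with values) were at 0 in C and S1. The mesothelial markers (4 of 7 with values) summed to 107, 142 and 120 CPM in S1 and 75.9 CPM in C. In S2 of T2.5 and T5 they summed to 29.1 and 15.6 CPM, and in S3 of T20 to 138 CPM. MSLN alone held 109 and 93.1 CPM of the S1 sums in T2.5 and T5, and 2 markers were at 0 in all S1 libraries. The list, mainly MSLN, thus ran the other way between S1 and S2. The populations are of 1 cell line per the labels, and the part of other cells in these values was not tested.

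**Figure D4:**
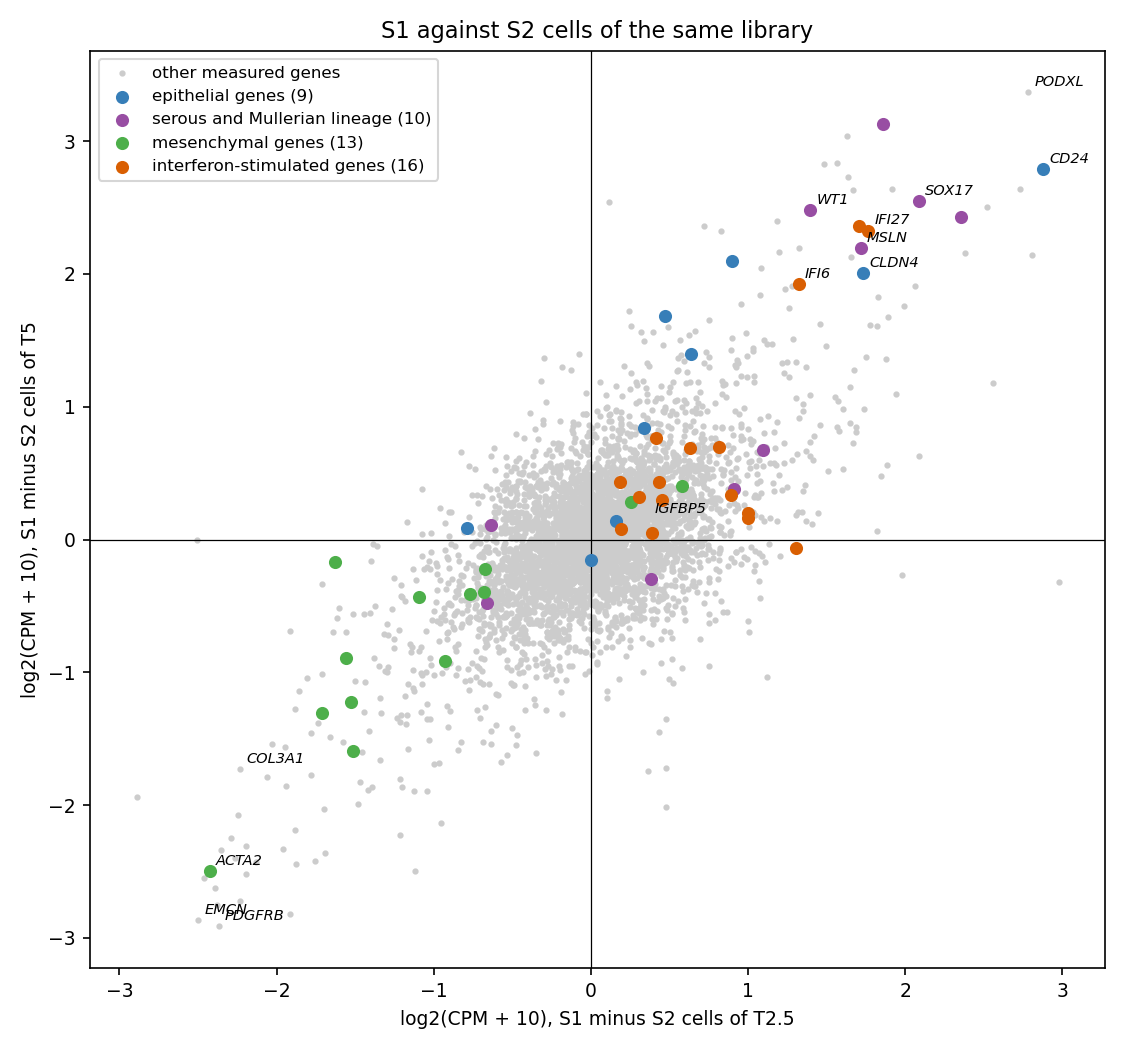
Difference of S1 from S2 in log2(CPM + 10) in T2.5 (x axis) and in T5 (y axis), 1 point per measured gene, with 4 gene lists coloured. PODXL, CD24 and SOX17 lie at the upper right, PDGFRB, EMCN and ACTA2 at the lower left, and IGFBP5 near the centre.

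The interferon list was also higher in S1 than in S2. Of 16 measured genes, 3 were called higher and 0 lower, against backgrounds of 2.58% and 2.45%. The mean difference was positive in all 16, with a median of 0.60 (0.72 in T2.5 and 0.38 in T5). MX1 differed by 1.71 and 2.36. Class I genes had 3 of 10 called higher (median 0.51). AP-1 genes had 0 of 15 called, although all 15 means were positive (median 0.39).

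Differences from the later states were taken between the mean levels of the states, without the rule that each library has the same sign, so their counts cannot be set against those for C and S2. Against S3, 303 of 5254 measured genes were called higher in S1 (5.77%) and 169 lower (3.22%), against S4 413 of 5178 (7.98%) and 269 (5.2%), and against S5 541 of 5068 (10.7%) and 413 (8.15%). Only MSLN and TSPAN7 were at least 2-fold higher in each S1 library than the mean level of any other state, 0.0328% of 6104 genes, and 0 genes (0%) were as far below all. This rule did not set S1 against single libraries of those states, which can lie at the level of S1. The mesothelial markers, MSLN among them, summed to 138 CPM in S3 of T20, against 107, 142 and 120 CPM in S1. MSLN, mesothelin, a surface protein of mesothelium and of serous carcinoma (chr16:760762-768865), stood at 95.8, 109 and 93.1 CPM in S1 and 22.4 in C. In S2 of T2.5 and T5 it was at 26.2 and 12.5 CPM. TSPAN7, which encodes a tetraspanin, was at 35.4, 34.2 and 50.1 CPM in S1 and at 11.6 and 12.5 CPM in S2 of T2.5 and T5. It differed from C by 1.18, 1.14 and 1.59, and from S2 of the same library by 1.03 and 1.42. At 1.5-fold the number was 14, with MX1, PODXL, SERPING1 and KLK5 among them. IFI6, IFI27, IGFBP5 and PLXNA4 were not among the 14.

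Within S1, 71 of the 80 genes called higher from T1 to T5 and 79 of the 92 called lower had both steps of 1 sign. Those called were 1.94% and 2.23% of 4124 measured genes. The difference from T1 to T5 is the sum of the 2 steps, so genes called on it mostly have steps of that sign. These numbers therefore do not show a steady trend with dose. From T1 to T2.5, 32 of 3982 measured genes were called higher (0.804%) and 44 lower (1.1%), while TMM gave 19 and 62 and DESeq2 size factors 21 and 51. From T2.5 to T5, 27 of 4144 were called higher (0.652%) and 65 lower (1.57%). GADD45B, a stress response gene, stood at 16.6, 16.8 and 87.7 CPM, and PIM1, a kinase of cytokine signalling, at 33.0, 51.0 and 122 CPM. MFAP5, a microfibril protein, was at 13.9, 47.5 and 73.4 CPM. TMEM100, a membrane protein, was at 25.3, 67 and 109 CPM and RGCC, a cell cycle regulator, at 29, 78.9 and 109 CPM. Both were higher still in C, at 168 and 187 CPM. RGS5 and FBLN5, a fibre protein of elastic matrix, also belonged to the genes that were higher at each dose.

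Genes lower at each dose included IFI27 and IFIT1, given above, with DTX3L, a ubiquitin ligase of the interferon response. NXPH2 was at 62.6, 16.8 and 5.37 CPM and DAPL1 at 194, 81 and 51.9 CPM. DAPL1 shares 10.4% of its 3′ end sequence with other transcripts. LHX1, a developmental transcription factor, and MPP6, a scaffold protein, completed the group together with MTRNR2L8, at 12323, 6056 and 3873 CPM, of whose 3′ end sequence 41.9% is shared with other transcripts. Contractile and mesenchymal genes were higher at T2.5: 4 of 10 were called higher than in T1 (median 0.78, background 0.804%), and ACTA2 stood at 108, 436 and 335 CPM.

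**Figure D5:**
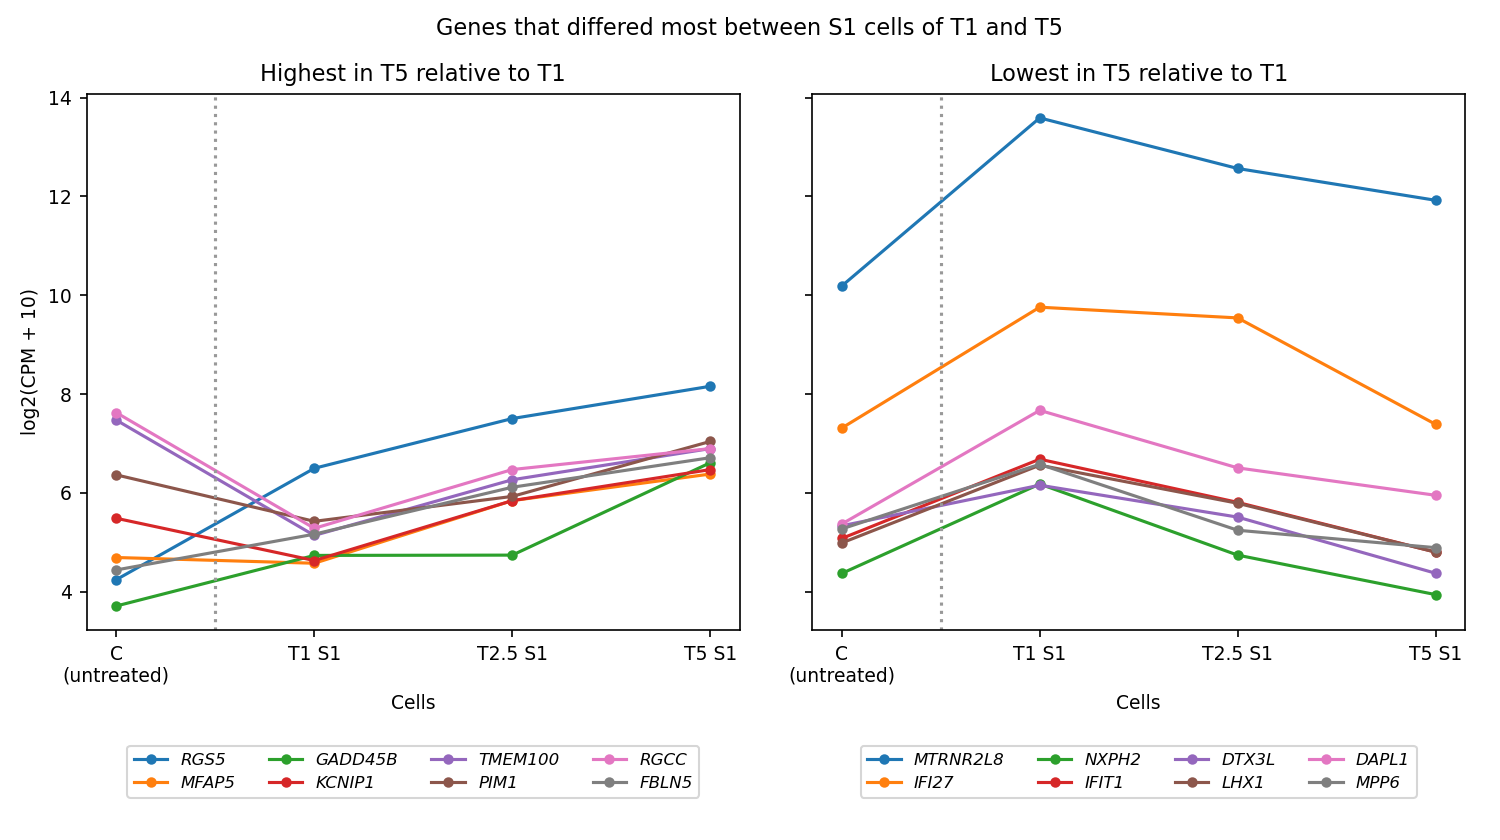
Level in log2(CPM + 10) (y axis) in C and in S1 of T1, T2.5 and T5 (x axis) of the 8 genes highest and the 8 lowest in T5 relative to T1. GADD45B is level between T1 and T2.5 and higher in T5, whereas TMEM100 and RGCC are highest in C.

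Cell to cell spread inside S1 was described by the ratio of variance to mean of each gene, where 1 is pure counting. After thinning, the median ratio was 1.06, 1.10 and 1.07 in T1, T2.5 and T5 over 1451 genes. The ratio exceeded 2 in 32, 39 and 50 genes. Thinning and low counts draw this ratio towards 1 whatever the spread between cells. A median near 1 therefore does not show that most genes were even across S1 cells. IGFBP5 had ratios of 2.37, 4.06 and 8.08, against 1.80 in C, and FN1 had 6.56, 5.00 and 6.04, against 11.3 in C. The ratio rises with the level of a gene, so these values do not rank the groups by evenness. IGF2 had 6.58, 6.68 and 5.46, and TAGLN, a contractile protein, 2.43, 2.97 and 2.75. The counts of ACTA2 and TAGLN had an r across cells of 0.42, 0.51 and 0.52, whereas those of IGFBP5 and PLXNA4 had 0.11, -0.05 and 0.04. IFI6 and IGFBP5 had -0.03, 0.04 and 0.10.

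Over 3649 genes and with each group's sum thinned to 240000 UMIs, the root mean square log2 difference between S1 groups was 0.543 for T1 and T2.5, 0.585 for T1 and T5, and 0.511 for T2.5 and T5. S1 and S2 of the same library differed by 0.572 in T2.5 and 0.583 in T5. Counting noise at that depth is part of each of these values and was not measured. They therefore do not show whether doses or states differed more. The distances to C were 0.732, 0.646 and 0.704, and those to S5 of T320 were 1.08, 1.09 and 1.08.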

How the data were processed

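In the deposited matrix each value is a UMI count of 1 gene in 1 cell. The metadata table deposited by the authors gives each listed cell a state, counts of UMIs and genes, and the mitochondrial share as a fraction. Builds hg38 and GRCh38 and Seurat 2.3.2 are named, per the submitters' processing notes; for the aligner, counter, annotation, cell filters and state assignment, no detail is given in the sources used here. Counts were summed by library and state with no further cell filter, and no doublet caller was run. Differences used log2(CPM + 10). Genes found in under about 1% of the cells of a library appear in it at 0, which is no measured absence. The members, markers and gene lists were chosen with earlier results of these data known. Genes were named by rule: the 12 highest and lowest against C, 10 against S2, 8 over the doses, 10 high and 5 low against every state, 4 per list, the 10 most variable, the markers and a fixed set. Positions are from GENCODE 29. Scripts (Python 3.11.15, pandas 2.3.3, edgeR 4.0.16 and DESeq2 1.42.0 for scaling factors only) were tested on simulated data. Pseudocount, filters, scaling, thinning, shared 3′ ends and single libraries were varied. A few genes are not reported here.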

Additional observations from a re-analysis of the deposited data

Results flagged for a closer look

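The listed cells are fewer than those the matrix holds, and markers of S1 were also high in cells of the same libraries that the table does not list, all 4 in T1 and T2.5, and IGFBP5 and PLXNA4 in T5. Against unlisted untreated cells, on the log2(CPM + 10) scale, IFI6 was higher by 3.19 in T1 and 3.79 in T2.5, and IFI27 by 2.73 and 2.36. IGFBP5 was higher by 3.98 in T1, 3.81 in T2.5 and 4.92 in T5, and PLXNA4 by 4.12, 2.91 and 3.11. These are cells outside the comparisons above; 60.9% to 68.0% of them held 3 or more G2/M UMIs after thinning. In CPM, IFI6 stood there at 1034, 1571 and 189 in T1, T2.5 and T5 and at 104 in unlisted C cells. IFI27 was at 815, 628 and 39.9 CPM, with 114 in C, so in T5 it was below C.

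ST3GAL1, a sialyltransferase, had opposite signs in the libraries that hold both states. It was higher in S1 than in S2 by 1.12 in T2.5 and differed by -1.04 in T5, and this difference between the libraries was not tested.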

How the results depend on the processing

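No paired analysis was possible because each population has 1 library and no result comes from a test; S1 and S2 were set against each other within each library. Of 228 recomputed numbers of called genes, 164 stayed within 1.5 times the value given and 64 did not. Of 1395 values of named genes, 1144 stayed within counting error and 251 moved. A change of sign was looked for only where the gene was called in the main setting, and 0 of those values changed sign. Numbers are given as higher and lower.

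Against C, a pseudocount of 1 CPM gave 132 lower and one of 50 CPM gave 48 and 23, with 3 interferon-stimulated and 2 AP-1 genes higher. A minimum of 200 CPM gave 65 and 25 with 3 genes of fibrillar collagens and their assembly, and thinned cells gave 169 lower. Leaving out 1 library gave 5 to 11 interferon-stimulated, 3 to 7 AP-1 and 4 to 5 collagen and collagen assembly genes. All genes came to 183 to 235 higher and 73 to 123 lower.

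Against S2, a pseudocount of 50 CPM gave 35 and 41, with 3 mesenchymal genes lower. A minimum of 200 CPM gave 29 and 43, with 2 serous and 3 epithelial genes higher and 3 mesenchymal genes lower. No minimum gave 203 higher, 10 of them epithelial, and thinned cells gave 279 and 219. Leaving out 1 library gave 134 to 148 higher and 119 to 131 lower, 2 to 5 epithelial, 5 to 6 serous, 3 to 4 interferon-stimulated and 4 to 7 mesenchymal genes. Above every other state, 1.5-fold gave 14.

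From T1 to T2.5, pseudocounts of 1 and 50 CPM gave 49 and 68, and 6 and 16; TMM gave 19 higher, DESeq2 size factors 21 higher, a minimum of 200 CPM 8 and 20, no minimum 60 and 81, and thinned cells 64 and 99 with 1 interferon-stimulated gene lower. From T2.5 to T5, the same pseudocounts gave 53 and 111, and 3 and 15. A minimum of 200 CPM gave 7 and 20, no minimum 115 and 171 with 9 interferon-stimulated genes lower, and thinned cells 205 and 228 with 6. Without genes of shared 3′ ends 49 were higher. From T1 to T5 the pseudocounts gave 141 and 140, and 17 and 18, the larger with 6 interferon-stimulated genes lower. A minimum of 200 CPM gave 18 and 26 with 6 of them, no minimum 177 and 195, thinned cells 261 and 201, and leaving out shared 3′ ends 148 lower.

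Further alternatives were chosen after seeing the data. Cells with a barcode of another library were left out of every comparison with C, S2 and between doses, and cells with 3 or more G2/M UMIs per 1000 of those with C and between doses only; these numbers stayed within 1.5 times. S1 of T5 held 558471 UMIs and no dose has a replicate, which limits the dose steps. The cause of the moves was not tested.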

Other observations

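Other gene groups differed inside S1 or from C. Apolipoproteins and lipid carriers were higher than in C in 3 of 7 measured genes and lower in 0 (median 0.82), against 4.34% and 1.9% of all measured genes. APOE, a carrier of cholesterol, stood at 537, 885 and 684 CPM in S1 of T1, T2.5 and T5, at 294 CPM in C and at 291 and 326 CPM in S2 of T2.5 and T5. Both kallikreins measured were called higher in S1 than in C (background 4.34%) and than in S2 (background 2.58%), but not all later groups were lower. The 5 kallikreins with values summed to 325, 267 and 358 CPM in S1 of T1, T2.5 and T5. In S3 of T10, T20, T40 and T80 they summed to 548, 590, 290 and 109 CPM. KLK5, a serine protease, was at 104, 147 and 188 CPM in S1, 49.7 CPM in C and 40.7 and 14.1 CPM in S2. KLK6 was at 173, 90.7 and 138 CPM in S1, 54.2 CPM in C and 37.8 and 31.2 CPM in S2. CRYAB, a small heat shock protein, was at 109, 381 and 229 CPM against 66.2 in C, while the 12 measured heat shock genes had a median of -0.25.

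Metallothioneins, which bind zinc and copper, had medians of -0.10, 0.39 and -0.47 against C in T1, T2.5 and T5. Of 4 measured, 0 were called, which at backgrounds of 4.34% and 1.9% is no result about so few genes. The metallothionein sum was 1222, 1501 and 689 CPM in S1 and 1447 CPM in C. From T2.5 to T5, 2 of 4 were called lower and 0 higher (median -1.06, background 1.57% lower), with MT2A at 804, 935 and 394 CPM in S1. In S2 of T2.5 and T5 MT2A was at 1140 and 428 CPM, so both states of T5 were lower than those of T2.5. Lysosomal genes were positive in 13 of 14 measured genes from T1 to T5 (median 0.54, against 0.07 over all measured genes). Of these, 0 were called, which at backgrounds of 1.94% higher and 2.23% lower is no result about so few genes. LAMP1, a protein of the lysosomal membrane, was at 206, 281 and 335 CPM.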
